A study of Mus musculus with 18 samples.

Results

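Sox1, Sox2, Sox3, Sox9, Pax6 and Nes are 6 genes of the neural progenitor programme, followed here through neuronal differentiation of ESD3 mouse embryonic stem cells with and without knockdown of the purine salvage enzyme HPRT. They were chosen by gene symbol, as every probe annotated with one of the 6 names, which gave 11 probes among 45281 on the array and 6 genes among 30869 symbols. The D3 embryonic stem cell line, of mouse strain 129s2/SvPas, was grown on primary mouse embryo fibroblast feeders, so RNA of the ES stage can hold feeder RNA. HPRT-knockdown cells carried an shRNA against HPRT, and WT control cells carried an shRNA against luciferase, so both arms had been transduced with a viral vector (retrovirus by the labels, lentivirus by the study's methods) and, by the methods, selected with puromycin. Each arm was profiled at 3 stages: undifferentiated cells (ES stage), the intermediate spherical neural mass (SNM stage) and the final neuronal stage of a dopaminergic differentiation protocol. RNA of replicate cultures was pooled for each of the 6 conditions and each pool was hybridised to 3 Illumina MouseWG-6 arrays, 18 in all. The 3 values of a condition are therefore repeat arrays of 1 pool, and every SD, standard error and p-value below covers the spread between arrays and not that between cultures.

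Sox1, Sox2 and Sox3 form the SoxB1 group of high-mobility-group transcription factors, which hold neural progenitors in an undifferentiated, dividing state. Sox2 has a second role before that, as one of the core factors of pluripotent cells, whereas Sox1 and Sox3 mark commitment to the neural lineage. Sox9, of the SoxE group, is needed for the switch of neural stem cells to glial production and for cartilage formation. Pax6, a paired-box and homeodomain factor, patterns the forebrain and eye and marks cortical radial glia. Nes encodes nestin, an intermediate filament protein of neural stem cells that is also made in developing muscle, where it assembles with vimentin or desmin.

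Hprt1, the targeted gene under its symbol on the array, was lower in the knockdown arm at every stage, by 94.1% in ES cells, 70.5% in SNM and 95.4% in neuronal cultures. Its brightest probe, the only one of its 3 probes described here, averaged 7.95 ± 0.19 in knockdown against 12.04 ± 0.03 in control ES cells on the normalized log2 scale (SD, n = 3 arrays), and 9.44 ± 0.09 against 11.20 ± 0.06 in SNM. The 18 arrays had 18827 to 22202 probes above background each, arrays of 1 condition correlated at 0.9923 to 0.9968 over all probes, and no 2 arrays held identical values. All 20 pluripotency genes listed were detected in both ES conditions, and 11 of 13 neuronal genes on all 3 control neuronal arrays. Such detection does little to tell the stages apart. Of the 20 pluripotency genes 18 were also detected on all 3 arrays in each SNM and neuronal condition, and 8 of the 13 neuronal genes in both ES conditions. Depth has no counterpart on arrays, and the number of arrays limits the precision.

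For 4 of the 6 genes a RefSeq promoter window was at hand. The 250 bases before the annotated start (build GRCm38.p6, plus strand) are given for 2 genes called in opposite directions at the neuronal stage, Sox2 (chr3:34649745-34649994) and Nes (chr3:87970843-87971092). Pax6 was also called lower there, and its windows are not shown. Capitals mark matches, on either strand, to the octamer of POU factors ATGCAAAT, the SOX cores ACAAAG and AACAAT, and the GC box GGGCGG.
Sox2: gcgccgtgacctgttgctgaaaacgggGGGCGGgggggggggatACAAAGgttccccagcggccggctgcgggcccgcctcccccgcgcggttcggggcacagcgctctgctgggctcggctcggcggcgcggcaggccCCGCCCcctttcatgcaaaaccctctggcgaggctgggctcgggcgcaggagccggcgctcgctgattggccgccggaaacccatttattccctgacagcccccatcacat
Nes: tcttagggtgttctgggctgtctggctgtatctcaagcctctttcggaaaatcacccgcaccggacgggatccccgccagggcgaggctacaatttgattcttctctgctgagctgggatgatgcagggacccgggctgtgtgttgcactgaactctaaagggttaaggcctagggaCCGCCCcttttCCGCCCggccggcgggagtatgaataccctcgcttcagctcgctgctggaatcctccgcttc

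The Sox2 window held 1 match to ACAAAG and 2 to the GC box, with no letters shared between matches. The Nes window held 2 GC-box matches. Over 32851 promoter windows of the same length, 16.5% held ACAAAG, 9.42% held AACAAT, 1.6% held the octamer and 32.7% held the GC box. A match is a run of letters and not a measured binding site.

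**Figure D1:**
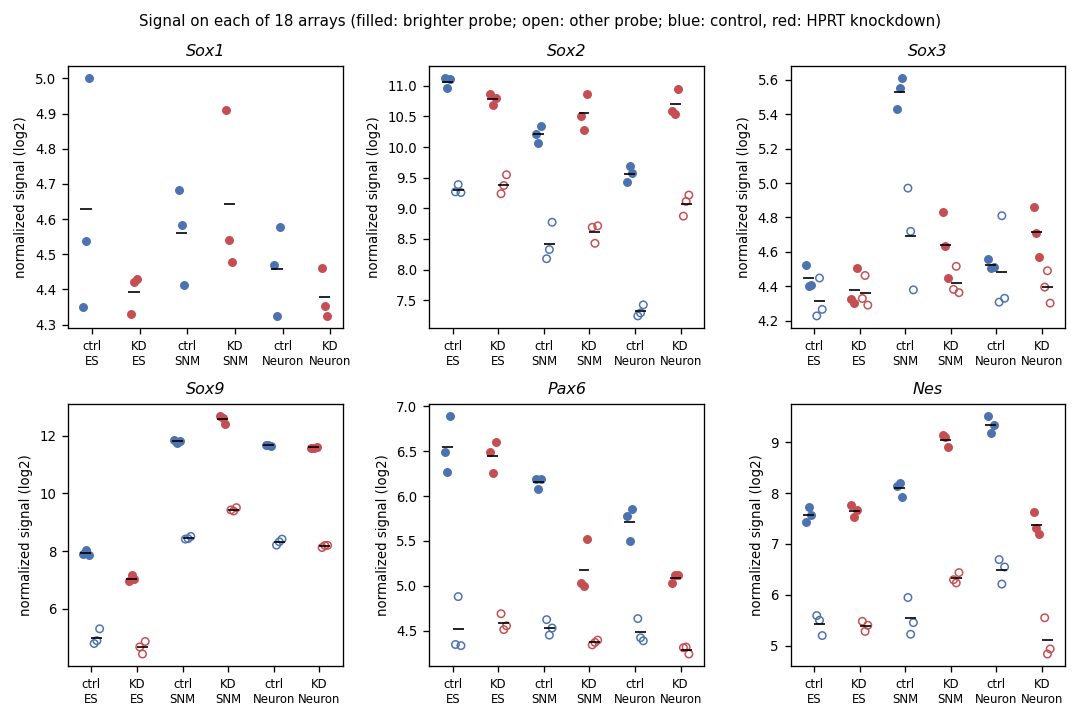
Normalized log2 signal (y axis) of every probe of Sox1, Sox2, Sox3, Sox9, Pax6 and Nes on each of 18 arrays, by condition (x axis; ctrl, WT control; KD, HPRT knockdown), with the brighter probe of a gene filled, the other open and a bar at each mean of 3 arrays. The brighter Nes probe sat at 9.18 to 9.52 in control neuronal cultures and at 7.19 to 7.62 in knockdown ones, while the brighter Sox2 probe ran the other way, from 9.43 to 9.68 up to 10.55 to 10.95.

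The first question was which of the 6 genes differed between the arms at each stage. A gene is represented by its brighter probe and was tested where that probe was above background (detection p under 0.05) on the full set of 3 arrays in either compared condition. It is called up- or down-regulated where limma, fitted across all probes, gave a Benjamini-Hochberg adjusted p under 0.05 and the change was at least 1.5-fold. In ES cells 4 of the 6 genes were tested and 1, Sox9, was called, down-regulated, where 1.68% of all probes tested were called, 0.516% higher and 1.17% lower in knockdown cells. In SNM 5 were tested and 4 called, with Sox9 and Nes up-regulated and Sox3 and Pax6 down-regulated, against 19.9% of all probes tested, 11% higher and 8.9% lower. Sox3 was tested there only through control SNM, where it was higher, so its call as down-regulated is tied to the detection filter. In neuronal cultures 4 were tested and 3 called, with Sox2 up-regulated and Pax6 and Nes down-regulated, against 27.4% of all probes tested, 13.9% higher and 13.5% lower. These shares over all probes are also the background for the counts in gene lists at the same stages below. A signal from a mixed culture does not tell fewer cells of a type from less RNA per cell, here or in any result below.

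**Figure D2:**
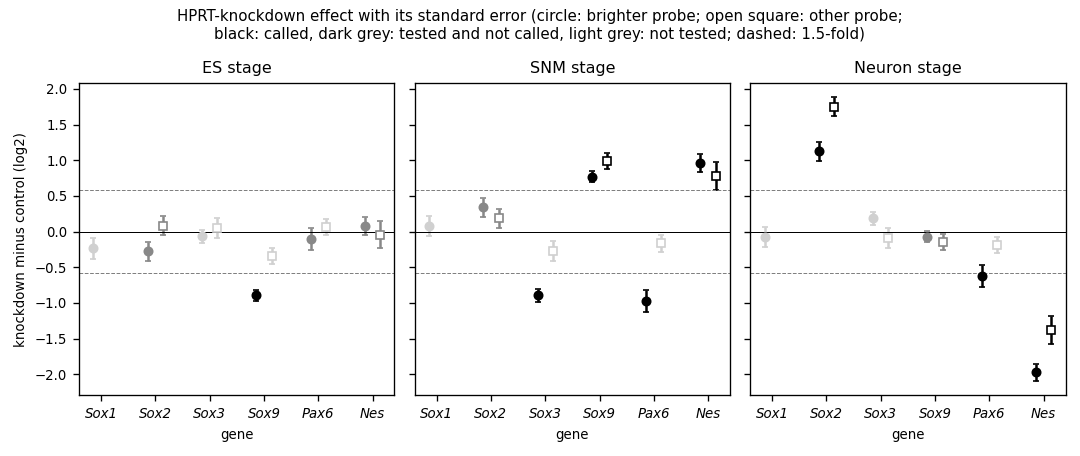
Difference between HPRT-knockdown and WT control cells (y axis, log2) at each stage for each gene (x axis), with bars of 1 standard error from limma over 3 arrays per condition. Nes stood at 0.96 in SNM and -1.97 in neuronal cultures, Sox2 at 1.13 in neuronal cultures, and Sox9 at -0.89 in ES cells and 0.77 in SNM.

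Sox2 fell through differentiation in WT control cells and, by its brighter probe, did not fall past the threshold at either step in HPRT-knockdown cells. Its brighter probe read 11.13, 10.96 and 11.11 in control ES cells, 10.22, 10.07 and 10.34 in control SNM, and 9.43, 9.68 and 9.58 in control neuronal cultures. In the knockdown arm it read 10.87, 10.69 and 10.80 in ES cells, 10.51, 10.29 and 10.86 in SNM, and 10.59, 10.55 and 10.95 in neuronal cultures. All 3 knockdown arrays lay above all 3 control arrays at the neuronal stage, whereas the arms overlapped at the SNM stage.

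The neuronal-stage difference in Sox2 was 1.13 ± 0.13 on the log2 scale (standard error; 2.19-fold; limma adjusted p = 1.92e-06). Its other probe gave the same direction and a larger step, with 7.24, 7.29 and 7.42 in control against 8.87, 9.11 and 9.22 in knockdown cultures, a difference of 1.75 ± 0.13 (3.36-fold; limma adjusted p = 1.19e-08). In SNM the brighter probe was 1.27-fold higher in knockdown cells, with a limma adjusted p of 0.0402 but under the 1.5-fold limit, and the other probe 1.14-fold higher (adjusted p = 0.264). In ES cells the brighter probe stood at -0.28 in knockdown against control with arrays that did not overlap, the other probe at 0.08 with arrays that did, and neither passed (limma adjusted p = 0.204 and 0.762).

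The stage steps of Sox2 were read in each arm. In control cells the brighter probe fell 1.81-fold from the ES to the SNM stage (limma adjusted p = 2.19e-05) and 1.56-fold more from the SNM to the neuronal stage (adjusted p = 0.000547). The second of these steps came under 1.5-fold when the first control neuronal array was left out (-0.57) or the third control SNM array (-0.58). In knockdown cells the steps of that probe were -0.24 and 0.14, neither past the test (limma adjusted p = 0.109 and 0.366). The first of these was -0.54 with 75th-percentile scaling without background correction (limma adjusted p = 3.68e-05). It was -0.51 with the Sox2 probes averaged (limma adjusted p = 0.000776), and both values were under 1.5-fold. The other Sox2 probe did fall in knockdown cells from the ES to the SNM stage, by 0.77 on the log2 scale (adjusted p = 5.93e-05), so the 2 Sox2 probes disagree on that step. From the SNM to the neuronal stage the other probe was 1.37-fold higher in knockdown cells, with an adjusted p of 0.00782 and arrays that did not overlap, but under the 1.5-fold limit.

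Other pluripotency genes did not run with Sox2 in the knockdown arm. Of a list of 20 that leaves out Sox2, among them Pou5f1, Nanog and Klf4, 18 were tested at the neuronal stage and 15 were lower in knockdown cells, with a median log2 difference of -1.56 beside 0.014 over all probes tested. Their summed linear signal was 13940 to 14410 in control and 5641 to 6030 in knockdown neuronal cultures, with Nr0b1 undetected in both. Markers of oligodendrocytes, a lineage whose progenitors also express Sox2, moved the same way as Sox2 there. Of 14 such genes 13 were higher in knockdown neuronal cultures, with a median of 4.93, and their summed signal was 73730 to 79180 against 5527 to 5940 in control, all 14 being detected in the knockdown arm. At the SNM stage, where Sox2 was not called, 6 of the 13 tested oligodendrocyte genes were lower and 2 higher in knockdown cells. The astrocyte list also moved with Sox2 at the neuronal stage, with 10 of 15 genes higher and 2 lower in knockdown cultures (median 1.085). At the SNM stage 9 of its 15 genes were higher and 0 lower. The part of either list in the Sox2 result was not tested.

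Sox3 and Sox1, the members of SoxB1 that mark neural commitment, were at or near background. The single Sox1 probe ranged from 4.33 to 5.00 over the 18 arrays, was above background on 2 of them and never on all 3 of a condition, so Sox1 was not tested and no difference was measurable here. Sox3 rose above background in 1 condition, control SNM, where its brighter probe read 5.43, 5.55 and 5.61. Knockdown SNM arrays read 4.83, 4.64 and 4.45, of which 1 was above background.

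The SNM-stage difference in Sox3 was -0.89 ± 0.09 on the log2 scale (1.86-fold; limma adjusted p = 8.87e-07). Without background correction it was -0.40 or -0.46 and with a larger offset -0.44, all under 1.5-fold, so the call depends on how the background was handled. Sox3 rose at least 1.58-fold from the ES to the SNM stage in control cells (limma adjusted p = 2.42e-08) and fell at least 1.77-fold from there to the neuronal stage (adjusted p = 1.27e-07), since it was not detected at the other control stages. These bounds hold for the main normalization, since without background correction the rise was 0.51 or 0.23 on the log2 scale and the fall -0.46 or -0.52, and with a larger offset 0.52 and -0.49, all under 1.5-fold. Its other probe was above background on 2 of 3 control SNM arrays, with 4.97, 4.72 and 4.38, and was not tested.

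Sox9 had the widest range of the 6 genes, from 6.95 to 12.70 over the 18 arrays by its brighter probe. In ES cells it read 7.91, 8.04 and 7.85 in control and 6.95, 7.16 and 7.02 in the knockdown arm. In SNM it read 11.85, 11.75 and 11.82 in control and 12.70, 12.62 and 12.42 in knockdown cells. The arms lay apart at both stages, with the knockdown arrays below the control at the first and above it at the second.

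Sox9 was thus 1.86-fold lower in knockdown ES cells (-0.89 ± 0.07; limma adjusted p = 2.47e-06) and 1.71-fold higher in knockdown SNM (0.77 ± 0.07; adjusted p = 3.14e-07). At the neuronal stage it read 11.69, 11.67 and 11.64 in control and 11.59, 11.59 and 11.61 in knockdown cultures, a difference of -0.07 ± 0.07 that did not pass (limma adjusted p = 0.438). Its other probe gave 1.99-fold in SNM (adjusted p = 3.06e-06) and -0.14 in neuronal cultures (adjusted p = 0.312). That probe was above background on 2 of 3 control and on no knockdown ES array, at 4.79, 4.89 and 5.30 against 4.67, 4.43 and 4.86, so it leaves the ES-stage difference untested. The annotation ties that probe to a RefSeq transcript and the brighter Sox9 probe to none, so the ES-stage call rests on the brighter probe alone.

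From the ES to the SNM stage Sox9 rose 14.7-fold in control cells (3.87 ± 0.07; limma adjusted p = 2.04e-16) and 46.4-fold in knockdown cells (5.54 ± 0.07; adjusted p = 2.86e-18). Its other probe rose by 3.46 on the log2 scale in control cells and at least 22.8-fold in knockdown cells, where it had not been detected at the ES stage. From the SNM to the neuronal stage Sox9 fell 1.98-fold in knockdown cells (limma adjusted p = 9.35e-09), while in control cells the step was -0.14 (adjusted p = 0.11). The last step brought both arms to similar levels.

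Lists of markers of the tissues known for Sox9 differed in direction beside it in knockdown SNM. Of 6 cartilage genes tested, 5 were higher there, with a median of 2.20 beside -0.038 over all probes, among them Col2a1, the collagen of cartilage (2.02; limma adjusted p = 2.44e-10), and Comp, a cartilage matrix protein that was not detected in control SNM and was at least 7.71-fold higher. The summed signal of all 10 cartilage genes was 6615 to 7658 in knockdown against 2057 to 2249 in control SNM, with Matn3, Col10a1 and Chad undetected in both. Col2a1 was the brightest called gene of that list, at 12.44 against 10.42 on the log2 scale, and a linear sum leans on its brightest genes. Of 15 astrocyte genes 9 were higher in knockdown SNM, with a median of 0.68, Aldoc, a glycolytic enzyme of astrocytes, by 1.20 and Gfap, their intermediate filament, by 1.75, and their summed signal was 21980 to 23950 against 14370 to 15560. At the neuronal stage, where Sox9 was not called, 10 of the 15 astrocyte genes were still higher and 2 lower in knockdown cultures, with 20000 to 21450 against 13160 to 14440. Of the 5 tested cartilage genes 3 were higher there and 2 lower, with Col2a1 among the lower (-2.12; limma adjusted p = 3.92e-11). Among undifferentiated cells, where Sox9 was lower, 1 of 5 tested fibroblast genes was lower in knockdown cells, S100a4, and the summed fibroblast signal was 393.5 to 432.2 against 529.1 to 563.7, with Col1a1, Lum, Postn and Pdgfrb undetected in both. The oligodendrocyte list had 6 genes lower and 2 higher of 13 tested in knockdown SNM (median -0.43; summed signal 11960 to 12830 against 16550 to 17050, Mog being undetected in knockdown SNM), and the neural crest list 1 higher and 1 lower of 5 (median 0.066; 8785 to 10040 against 6823 to 7267, Foxd3 being undetected in both arms). What these lists contribute to the Sox9 values was not tested.

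Pax6 was measured by a single probe in practice, and at a low level. Its brighter probe, which the annotation does not tie to a RefSeq transcript, was above background on all 18 arrays at 4.99 to 6.90, whereas the probe annotated to the RefSeq transcript was above background on 1 array, at 4.24 to 4.88. The values that follow are those of the brighter probe, and no second probe bears on them. It read 6.49, 6.27 and 6.89 in control ES cells and 6.49, 6.25 and 6.60 in knockdown ES cells. It read 6.19, 6.08 and 6.19 in control SNM and 5.03, 4.99 and 5.52 in knockdown SNM. The ES-stage arms overlapped and the SNM-stage arms did not.

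The SNM-stage difference in the Pax6 probe was -0.97 ± 0.16 (1.96-fold lower in knockdown; limma adjusted p = 7.16e-05). At the neuronal stage it read 5.77, 5.50 and 5.85 in control and 5.03, 5.12 and 5.12 in knockdown cultures, a difference of -0.62 ± 0.16 (1.54-fold lower; adjusted p = 0.00274) that came under 1.5-fold without the third control neuronal array (-0.55). Without background correction the SNM-stage difference was -0.49 or -0.53 and with a larger offset -0.58, and the neuronal-stage difference -0.29, -0.33 and -0.34 in the same order, all under 1.5-fold and all with an adjusted p below the threshold. In knockdown cells the probe fell 2.41-fold from the ES to the SNM stage (limma adjusted p = 1.3e-06), while in control cells it was 1.32-fold lower, which was under the 1.5-fold limit (adjusted p = 0.0291).

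Genes of lens and retina, where Pax6 also acts, were mostly near background. None of 10 such genes was above background on all 3 control SNM arrays, and Mip, a lens channel, was undetected in all 6 conditions. Rax, a retinal homeodomain factor and the single gene of the list tested at the SNM stage, read 5.24 in knockdown SNM and 4.37 in control, where it was not detected. Rax was tested only through knockdown SNM, and its bound was at least 1.40-fold, under the 1.5-fold limit. Genes of cell division were lower in knockdown cells at both later stages, where the Pax6 probe was called lower. Of 9 tested, 6 were lower in knockdown SNM (median -0.74) and 8 in knockdown neuronal cultures (median -0.94), and the summed signal of the 10 listed was 6422 to 6746 against 10750 to 10920 in SNM and 2226 to 2305 against 3958 to 4292 in neuronal cultures. From the SNM to the neuronal stage all 9 tested were lower in knockdown cells (median -1.57) and in control cells (median -1.37). The Pax6 probe was called at neither of those steps (-0.09 and -0.44). The part of dividing cells in the Pax6 values was not tested.

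Nes changed direction between stages. Its brighter probe read 8.15, 8.21 and 7.92 in control SNM and 9.15, 9.11 and 8.91 in knockdown SNM. At the neuronal stage it read 9.52, 9.18 and 9.34 in control and 7.62, 7.31 and 7.19 in knockdown cultures. Both pairs of conditions lay apart, with knockdown above control in SNM and below it in neuronal cultures.

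The Nes difference was 0.96 ± 0.12 in SNM (1.95-fold; limma adjusted p = 6.71e-06) and -1.97 ± 0.12 in neuronal cultures (3.93-fold lower; adjusted p = 7.84e-10). Its other probe gave 0.78 ± 0.19 (adjusted p = 0.00285) and -1.38 ± 0.19 (adjusted p = 1.27e-05), so both calls stood on either probe. In ES cells it read 7.43, 7.73 and 7.56 in control and 7.76, 7.52 and 7.67 in knockdown cells, and the difference of 0.08 did not pass (limma adjusted p = 0.752).

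In control cells Nes was 1.43-fold higher at the SNM than at the ES stage, under the 1.5-fold limit, and rose 2.39-fold from the SNM to the neuronal stage (limma adjusted p = 1.99e-07). In knockdown cells it rose 2.64-fold from the ES to the SNM stage (adjusted p = 1.92e-08) and fell 3.20-fold from the SNM to the neuronal stage (adjusted p = 6.17e-09). The peak of Nes thus lay at the neuronal stage in control and at the SNM stage in knockdown cells, and the 2 peaks, 9.35 ± 0.17 and 9.05 ± 0.13 (SD, n = 3 arrays), did not pass the test against each other (limma adjusted p = 0.0569).

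Skeletal muscle genes moved with Nes at the neuronal stage. Of 11 tested, 10 were lower in knockdown neuronal cultures, with a median of -5.90, and the summed signal of the 12 listed was 338.8 to 435.1 against 57830 to 58140 in control. In the knockdown arm 7 of the 12 were undetected on every array there, Myod1, Myog, Myf5, Myf6, Tnnt3, Ckm and Pax7, and in control neuronal cultures Pax7 alone. Of 11 tested neuronal genes 8 were lower, with a median of -1.34 and a summed signal of 6623 to 7652 against 13350 to 14680, Nefl and Snap25 being undetected in both arms and Tubb3 in the knockdown arm. Fibroblast genes gave 7 lower and 1 higher of 10, with 12740 to 15880 against 22450 to 25570. At the SNM stage, where Nes was higher in knockdown cells, 6 of 8 tested muscle genes were also higher, with a median of 0.67 and a summed signal of 2218 to 2482 against 1255 to 1285, Myf5, Ckm and Pax7 being undetected in both arms. Astrocyte genes gave 9 higher and 0 lower of 15 there (median 0.68), and neuronal genes 2 higher and 3 lower of 11 (median -0.14). Nes averaged 9.05 in knockdown SNM and 9.35 in control neuronal cultures, where the muscle sums were 2218 to 2482 and 57830 to 58140. The part of muscle or of any other list in the Nes values was not tested.

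**Figure D3:**
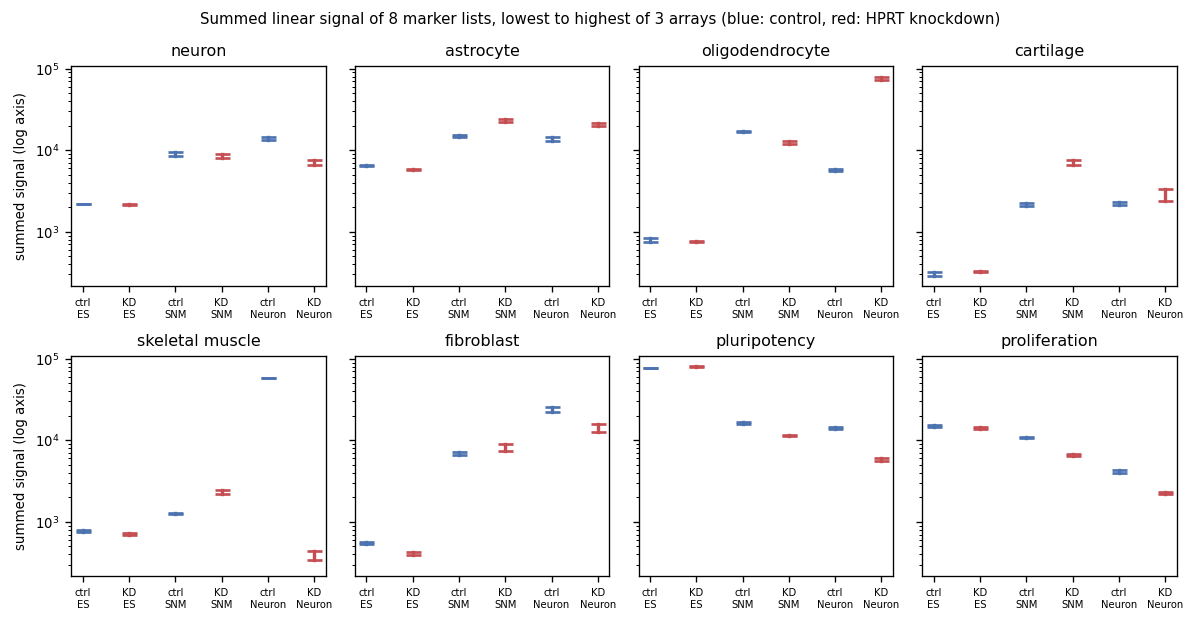
Summed linear signal (y axis, log scale) of 8 lists of marker genes in each condition (x axis), drawn from the lowest to the highest of 3 arrays. Skeletal muscle genes stood at 57830 to 58140 in control and 338.8 to 435.1 in knockdown neuronal cultures, and oligodendrocyte genes at 5527 to 5940 and 73730 to 79180.

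The stage steps of the 6 genes, read against all probes, were as follows. In control cells 3 of the 5 tested members were called from the ES to the SNM stage (Sox3 and Sox9 higher, Sox2 lower), where 49.1% of all probes tested were called, and 3 of 5 from the SNM to the neuronal stage (Nes higher, Sox2 and Sox3 lower), against 29.4%. In knockdown cells 3 of 4 were called at the first step (Sox9 and Nes higher, Pax6 lower), against 57.3%, and 2 of 4 at the second (Sox9 and Nes lower), against 28.6%. These shares lie near the background at the first step. Sox3 was tested in both control steps only through control SNM, where it was highest, so its calls there are tied to the detection filter. Both steps of an arm share its SNM arrays, and the steps of the arms share none.

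Whether the knockdown effect itself differed between stages was tested as a difference of differences in the same model. From the ES to the SNM stage it differed for all 5 tested members, where 21.3% of all probes tested were called, and from the SNM to the neuronal stage for 4 of 5, against 28.6%. For Sox9 the effect was 1.66 ± 0.10 higher at the SNM than at the ES stage (limma adjusted p = 6.66e-09) and then changed by -0.84 towards the neuronal stage (adjusted p = 5.56e-06). For Nes it was 0.88 ± 0.17 higher at the SNM than at the ES stage (adjusted p = 0.000706) and then changed by -2.93 ± 0.17 towards the neuronal stage (adjusted p = 7.26e-10). The depth of the knockdown differed in the same contrasts, with Hprt1 at 2.33 and then -2.69 (limma adjusted p = 2.17e-10 and 7.2e-12). Its part in the members' changes was not tested.

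Sox2 had an effect 0.79 ± 0.19 higher at the neuronal than at the SNM stage (limma adjusted p = 0.00258) and its other probe one 1.56 higher (adjusted p = 4.44e-06). From the ES to the SNM stage the Sox2 effect moved by 0.62 on the brighter probe (adjusted p = 0.0153) but by 0.10 on the other (adjusted p = 0.699), and leaving out the second knockdown ES, the second control SNM or the third knockdown SNM array brought it to 0.57, 0.55 and 0.46, under 1.5-fold. For the Pax6 probe the effect changed by -0.87 from the ES to the SNM stage (adjusted p = 0.00492), which was -0.42 or -0.45 without background correction and -0.50 with a larger offset, under 1.5-fold, and its later change of 0.35 did not pass (adjusted p = 0.204). For Sox3 the changes were -0.83 (adjusted p = 0.00013) and 1.08 (adjusted p = 5.04e-06), each on a probe above background in control SNM and on 2 of 15 arrays elsewhere. Sox3 therefore entered these tests through control SNM, where it is high, and its changes rest on undetected signals. They were -0.34 and 0.50 with quantile normalization, -0.34 and 0.58 with percentile scaling, both without background correction, and -0.42 and 0.52 with a larger offset, all under 1.5-fold.

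Ordered by level, each gene had its own sequence of conditions, given here for the brighter probe with means over 3 arrays. Sox2 was highest in control ES cells (11.07), followed by knockdown ES (10.79), knockdown neuronal (10.70), knockdown SNM (10.55), control SNM (10.21) and control neuronal cultures (9.57). Among neighbours in that order only the last 2 pairs had a limma adjusted p below the threshold (0.0402 and 0.000547). Sox9 was highest in knockdown SNM (12.58), with control SNM (11.81), control neuronal (11.67) and knockdown neuronal (11.60) next, and then control ES (7.93) and knockdown ES cells (7.04). The steps from control SNM to control neuronal and on to knockdown neuronal cultures did not pass limma (adjusted p = 0.11 and 0.438), although their arrays did not overlap, and the methods' t-test after Benjamini-Hochberg adjustment gave 0.0318 and 0.0233.

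Nes was highest in control neuronal cultures (9.35) and knockdown SNM (9.05), then control SNM (8.09), followed by knockdown ES (7.65), control ES (7.57) and knockdown neuronal cultures (7.37). The step from control SNM to knockdown ES had a limma adjusted p of 0.00372, and those among the last 3 conditions did not pass (0.752 and 0.135). The Pax6 probe was highest in control ES (6.55) and knockdown ES cells (6.45), followed by control SNM (6.15), control neuronal (5.71), knockdown SNM (5.18) and knockdown neuronal cultures (5.09). The steps between its first 3 conditions did not pass (adjusted p = 0.741 and 0.0932), although the arrays of knockdown ES and control SNM did not overlap, nor did that between its last 2 (adjusted p = 0.638), while the 2 steps between had an adjusted p of 0.0208 and 0.0101. Sox3 was highest in control SNM (5.53), and its other 5 conditions, 4.38 to 4.71, were not tested against one another.

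The other Sox genes were read beside the members, from a list of 15. Of 13 tested at the neuronal stage, 6 were higher and 3 lower in knockdown cultures, with a median of 0.54 beside 0.014 over all probes. Of all probes tested 13.9% were called higher and 13.5% lower there. Sox10 and Sox8, the SoxE partners of Sox9 that act in oligodendrocytes and neural crest, were higher by 5.85 (limma adjusted p = 6.66e-18) and 2.36 (adjusted p = 3.12e-07), in contrast to Sox9 at that stage. Sox17, an endoderm and endothelial factor, was higher by 1.07, while Sox11, of the SoxC group that acts in young neurons, fell by 1.78 (adjusted p = 4.98e-14) and Sox14, of the SoxB2 group, fell by 1.38 (adjusted p = 4.59e-08).

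Of the 13 other Sox genes tested in SNM 2 were higher and 2 lower, with a median of -0.15. Over all probes tested 11% were called higher and 8.9% lower there, so these counts lie near the background. Sox10 was lower there (-1.75; limma adjusted p = 6.25e-11), so its direction was opposite at the 2 stages, in the reverse order to that of Nes. Sox13 stood at -1.22, Sox8 at 0.74 and Sox18 at 0.66. In ES cells 1 of 9 tested was called, Sox11, at -0.71 (adjusted p = 4.92e-07). Of the 8 other Pax genes, 1 was tested at the ES stage, 2 in SNM and 1 in neuronal cultures. Pax8, a factor of kidney, thyroid and hindbrain, was -0.95 in knockdown SNM (adjusted p = 6.98e-07) and at least 2.78-fold lower in knockdown neuronal cultures, and Pax3, a factor of dorsal neural tube and neural crest, stood at 4.31 in knockdown SNM, where it was not detected, against 5.23 in control (adjusted p = 9.71e-06). Pax3 in SNM and Pax8 in neuronal cultures were tested only through control, where they were higher. These calls are tied to the detection filter, and the Pax3 bound was at least 1.46-fold, under the 1.5-fold limit.

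Intermediate filament genes, the family of Nes, split at both later stages. Of 9 tested at the SNM stage 5 were higher and 2 lower in knockdown cells, with a median of 0.68 beside -0.038 over all probes. Of all probes tested 11% were called higher and 8.9% lower there. Vim, which encodes vimentin, the usual partner of nestin in progenitors, was higher by 1.21 (12.93 against 11.72; limma adjusted p = 4.24e-09), together with Krt8 (2.89) and Krt18 (1.37), keratins of simple epithelia, and Gfap (1.75). Nefm, a neurofilament subunit, was lower (-2.03).

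At the neuronal stage 2 of the 9 filament genes were higher and 3 lower, with a median of -0.096, against 13.9% and 13.5% of all probes tested. Des, which encodes desmin, the partner of nestin in muscle, was lower by the most, 11.33 in control against 5.44 in knockdown cultures (-5.90; limma adjusted p = 6.83e-17). Ina and Nefm, filaments of neurons, stood at -3.57 and -1.34, whereas Gfap (1.61) and Prph, of peripheral neurons (1.76), were higher. Des is also on the muscle list, Gfap on the astrocyte list, and Ina and Nefm on the neuronal list.

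Other progenitor genes were read from a list of 36 measured that leaves out the 6 members. Of 28 tested in neuronal cultures, 12 were lower and 5 higher in the knockdown arm, with a median of -0.32 beside 0.014 over all probes. Of all probes tested 13.5% were called lower and 13.9% higher there. Dbx1, a homeodomain factor of the ventricular zone, stood at -2.81 (limma adjusted p = 2.19e-13), Gli3, a transcription factor of Hedgehog signalling, at -2.11, and Zic1, a zinc finger factor of neural plate and cerebellum, at -1.58. The direction of these 3 genes is that of Pax6 and Nes and the opposite of that of Sox2.

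At the SNM stage 6 of 30 tested progenitor genes were lower and 3 higher, with a median of -0.16. Over all probes tested 8.9% were called lower and 11% higher there, so the count of higher genes lies near the background. Dbx1 (-1.46) and Pou3f1, a POU factor of neural progenitors (-1.20), were lower, whereas Rfx4 (1.56) and Otx1 (1.47), factors of neural tube and forebrain patterning, were higher. Of 19 tested in ES cells, 2 were called, both lower, Dbx1 (-0.98; limma adjusted p = 9.27e-06) and Fabp7, a fatty acid binding protein of radial glia, at 4.55 in knockdown cells, where it was not detected, against 5.46 in control (adjusted p = 0.000897). Fabp7 was tested only through control ES, where it was higher, so its call is tied to the detection filter. Its bound was at least 1.44-fold, under the 1.5-fold limit.

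**Figure D4:**
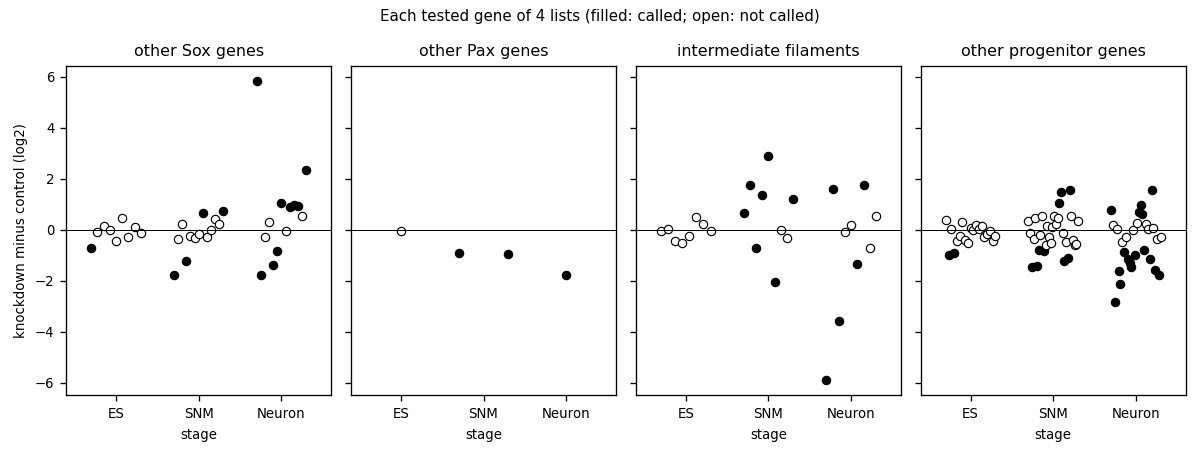
Difference between HPRT-knockdown and WT control cells (y axis, log2) for each tested gene of 4 lists at each stage (x axis), filled where called. Sox10 is the top point of the Sox list at the neuronal stage (5.85) and Des the lowest of the filament list (-5.90).

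Genes whose condition means ran most like those of a member were ranked by Pearson correlation over the 6 conditions, among 9206 genes that spanned at least 1 on the log2 scale. The points share pools and arrays, 6 points are few for so many candidates, and the values are a description. For Sox9 the nearest were Arl4c (0.998), Nudt10 (0.9977), Fabp7 (0.9975), Nudt11 (0.9973) and Gpr177 (0.9949). For the Pax6 probe they were Ctps (0.9968), D15Ertd682e, Psmd8, Cct4 and Akr1b3 (0.9874). For Sox2 they were 5330401F18Rik (0.9932), LOC100044314, Xlr4a, Snx10 and 2410002O22Rik (0.9461), for Sox3 C730029F17Rik (0.9911), Ano1, A930024E05Rik, Wdr51b and LOC100045413 (0.9714), and for Nes Iqsec3 (0.9831), 4Cytl1, 2810032E02Rik, Lemd1 and Fam123c (0.9738).

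Among the members themselves no pair ran closely together over the 6 conditions. The correlations of their condition means lay between -0.799 for Sox9 with Pax6 and 0.577 for Sox9 with Nes, and that of Sox2 with Nes was -0.764.

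**Figure D5:**
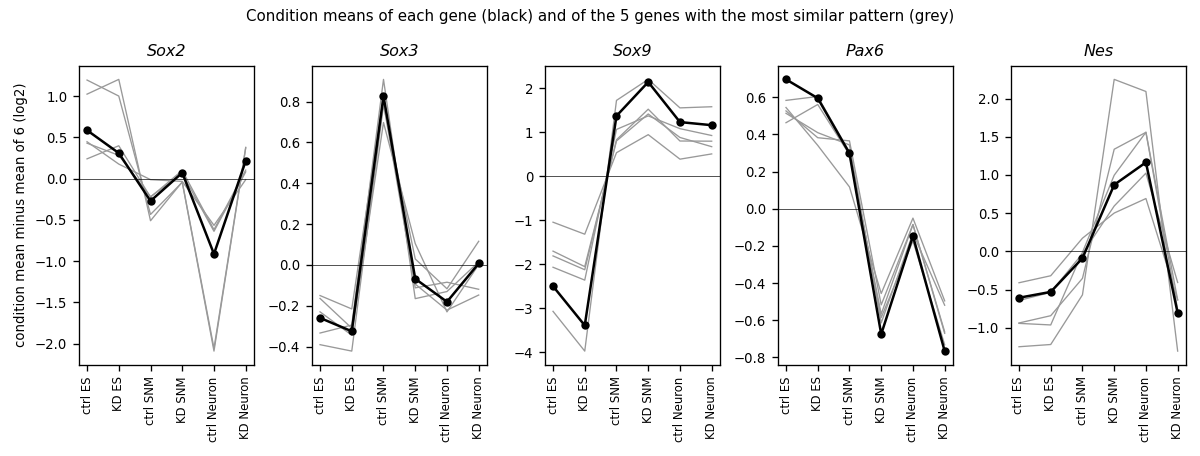
Condition means (y axis, log2, each gene centred on its mean over the 6 conditions) of 5 members in black and of the 5 genes with the most similar pattern for each in grey, by condition (x axis). Sox9 and its 5 genes rise between the ES and SNM stages, with correlations of 0.9949 to 0.998, and Nes and its 5 peak in knockdown SNM or control neuronal cultures.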

How the data were processed

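The authors deposited non-normalized signal intensities and detection p-values of 45281 probes on 18 Illumina arrays from pooled RNA, exported from Illumina's scanner software. Probe names were taken from the deposited annotation, whose 72 columns of array values matched no sample label and were not used. Intensities were background-corrected with the detection p-values, quantile-normalized and put on the log2 scale (neqc of limma 3.58.1, offset 16, R 4.3.3). A single limma model of 6 conditions gave all contrasts, two-sided, with Benjamini-Hochberg adjustment over all probes tested, and was tested on simulated data. An exact permutation test of 3 against 3 arrays cannot go below 0.1. Signals of different probes are not tested against each other. They were summed over gene lists and ranked by brightness, and their ranges were described side by side. A probe undetected on all arrays of 1 condition has a bound, "at least", computed against the lowest detected signal of each array, or its own value where higher. A listed gene undetected in a compared condition was tested through the other alone, so its call is tied to the detection filter. The members and gene lists were chosen with earlier results of these data known. Named genes are the members, up to 5 called genes per list and comparison by size with arrays apart, up to 3 bright called markers, and the 5 of most similar pattern. Some genes that this rule picked are not reported here. Same-numbered arrays deviated together in all 3 pairs for the arms at the SNM stage (r = 0.518, 0.107 and 0.507) and for the SNM to neuronal step in knockdown cells (0.548, 0.134 and 0.53), all over 0.1, the limit set for pairing, which at least 1 pair missed in each of the other comparisons. The numbers come from the sample titles. Alternatives were other normalizations, filters, tests and folds, and leaving out each array.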

Additional observations from a re-analysis of the deposited data

Results flagged for a closer look

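The knockdown effect differed between stages by the test of the difference itself (limma, 3 arrays of 1 pool per condition) in 9 instances. From the ES to the SNM stage its log2 change was 0.62 for Sox2 (adjusted p = 0.0153), -0.83 for Sox3 (0.00013), 1.66 for Sox9 (6.66e-09), -0.87 for Pax6 (0.00492) and 0.88 for Nes (0.000706). From the SNM to the neuronal stage it was 0.79 for Sox2 (0.00258), 1.08 for Sox3 (5.04e-06), -0.84 for Sox9 (5.56e-06) and -2.93 for Nes (7.26e-10). Sox3 was above background on all 3 arrays in control SNM alone, so its values are taken against undetected signals. The Sox2 value of 0.62 was 0.10 on the other Sox2 probe. The Pax6 value rests on a low probe without a second to set beside it. It was under 1.5-fold without background correction and with a larger offset. Hprt1, the targeted gene, itself changed in both contrasts, by 2.33 and -2.69.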

How the results depend on the processing

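At the ES stage the count of 1 became 0 at 2-fold. At the SNM stage the count of 4 became 2 with quantile normalization or 75th-percentile scaling without background correction and with offset 50, with Sox9 and Nes called each time, and 0 at 2-fold. The SNM to neuronal step of knockdown cells went from 2 to 1 at 2-fold. The change of the knockdown effect from the ES to the SNM stage went from 5 to 3 with quantile normalization, 2 with percentile scaling, 3 with offset 50 and 1 at 2-fold, and that from the SNM to the neuronal stage from 4 to 2 at 2-fold. With each of quantile normalization, percentile scaling and offset 50 the count also went from 3 to 2 for the knockdown at the neuronal stage (Pax6 lost) and for both control steps (Sox3 lost), and from 4 to 3 for the change of effect from the SNM to the neuronal stage (Sox3 lost). At 2-fold the first 3 of these were 2 as well, by losing Pax6 and, in the control steps, Sox2. Averaging the probes of a gene took the change of effect from the ES to the SNM stage from 5 to 4 (Sox2 lost). The replicate block, with the array number as a term, left all 9 counts as they were (1, 4 and 3 for the knockdown at the ES, SNM and neuronal stages) and changed no call. The methods' t-test, at an unadjusted p under 0.05 with 1.5-fold and after Benjamini-Hochberg adjustment, called the same members in all 7 comparisons it was run on. With each array left out in turn the counts ranged over 1 to 1, 4 to 4 and 2 to 3 for the knockdown at the 3 stages, 3 to 4 and 2 to 3 for the control steps, 3 to 3 and 2 to 2 for the knockdown steps, and 4 to 5 and 4 to 4 for the changes of effect. Of the members' single log2 differences under an alternative, 645 kept direction and call, 47 lost the call, 2 gained it (Nes, ES to SNM in control cells) and 2 uncalled Pax6 values turned sign, to 0.071 in ES cells without the third control array (range over the arrays left out, -0.24 to 0.071) and to 0.078 for the SNM to neuronal step without the third knockdown SNM array (-0.18 to 0.078). The cause was not tested. Low probes (Sox1, Sox3, Pax6) are limited by their signal over background.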
